A study of Homo sapiens with 12 samples.

Results

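The comparison described here asks whether irradiation altered the RNA recovered with eIF4E beyond what it did to the RNA recovered with a control antibody. It is a difference of 2 effects, the irradiation effect on eIF4E precipitates minus the irradiation effect on IgG precipitates, each taken as irradiated minus untreated on the log2(signal + 16) scale. All 12 arrays of the series entered it, 3 in each of 4 groups, as their titles assign them. The groups were "IgG Control" (untreated cells, control antibody), "IgG 2Gy 6h" (control antibody, 6 h after 2 Gy of X-rays given at 2.3 Gy/min), "4E IP Control" (untreated cells, antibody against eIF4E) and "4E IP 2Gy 6h" (that antibody, 6 h after 2 Gy). All came from MDA-MB-231, an established triple-negative, mesenchymal-like breast cancer line that carries mutant p53. A value above 0 means that the irradiated-to-untreated ratio was higher with eIF4E than with IgG, and a value below 0 that it was lower.

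eIF4E is the protein that holds the cap at the start of a messenger RNA and, with the scaffold eIF4G and the helicase eIF4A, brings it to the ribosome. It is held back by the 4E-BP proteins, which the mTOR kinase controls, and messengers for growth and survival proteins such as cyclin D1, MYC and MCL1 are known as sensitive to its supply. Ionizing radiation breaks DNA and sets off checkpoint and repair signalling, and cells are known to change the translation of many messengers after it. In a RIP-chip experiment RNA that comes down with a protein is read on an array, and the IgG precipitate shows what comes down with the beads and an unrelated antibody. The cells stand for 1 line only, and no array of unprecipitated RNA was used here, so a change in a messenger's amount and a change in its binding cannot be told apart, nor can fewer cells and less RNA per cell.

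No gene passed the test for this difference. Of 7178 genes tested with limma, 0 had an adjusted p under 0.05 (0% of the genes tested), and the smallest adjusted p was 0.999. Without adjustment, 216 genes had p under 0.05 (3.01%), 89 with a higher irradiation effect on eIF4E arrays (1.24%) and 127 with a lower one (1.77%). The count of 216 was 129 or 131 without untreated eIF4E replicate 2 or 3, and 382 or 392 without irradiated IgG replicate 2 or 3. The counts of genes per step of 0.05 in p were 216 in the lowest step and 299 in the next. The estimates were centred near 0, with a median of -0.007, with 3508 genes (48.9%) above 0 and 3656 (50.9%) below. Their 5th and 95th percentiles were -0.53 and 0.44, and single genes lay between -1.74 (CIC) and 1.62 (DIP2A). An estimate of at least 2-fold was reached by 70 genes (0.975%), 25 higher and 45 lower.

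**Figure D1:**
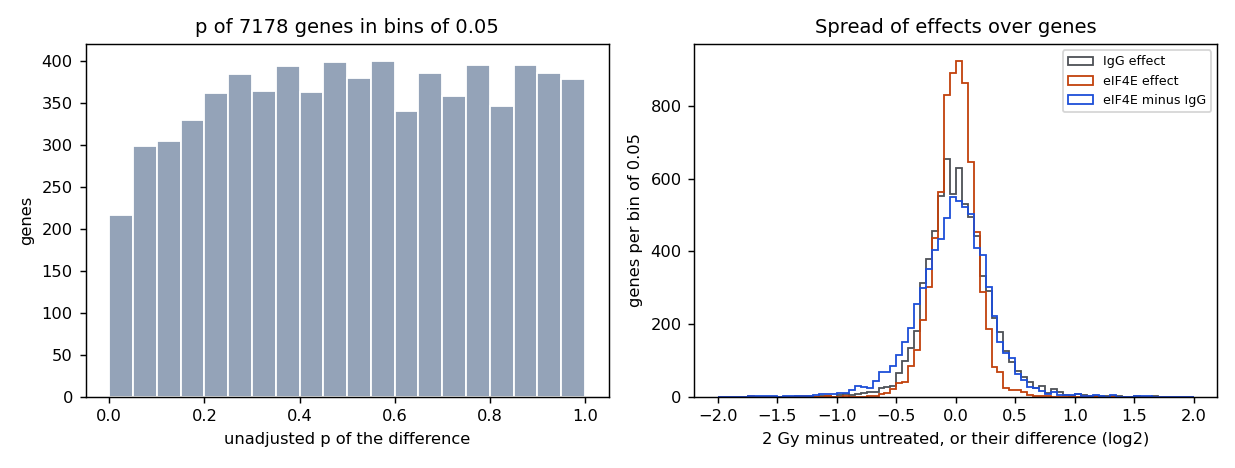
Left, the number of genes per step of 0.05 in the unadjusted limma p of the difference, with 216 of 7178 genes in the lowest step. Right, the spread over genes of the IgG effect (grey), the eIF4E effect (orange) and their difference (blue) in log2, with standard deviations of 0.27, 0.18 and 0.31.

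Arrays of the IgG precipitates varied more than those of the eIF4E precipitates, and the irradiation effect on IgG arrays had the wider spread over genes. Its standard deviation over genes was 0.27, against 0.18 for the eIF4E effect and 0.31 for the difference of both. Within groups, the median standard deviation of a gene on the log2 scale was 0.212 for untreated IgG arrays and 0.261 for irradiated ones. It was 0.152 and 0.172 for untreated and irradiated eIF4E arrays. The within-group spread was larger with IgG in 5317 genes (74.1%). Neither effect alone gave a gene past an adjusted p of 0.05 in limma, where unadjusted p under 0.05 was found for 82 genes with eIF4E and 475 with IgG. The fit took 1 variance per gene over all 4 groups. As IgG arrays varied more, this lowers p with IgG and raises it with eIF4E, so the 2 counts cannot be compared directly. Untreated and irradiated arrays did not overlap in 675 genes with eIF4E (9.4%) and in 623 with IgG (8.68%). Over genes, the 2 effects correlated weakly (Pearson's r = 0.087, Spearman's rank correlation 0.106, 7178 genes that are not independent). They share no array. The antibodies also differed in control measures. The actin 3' to 5' ratio was 2.96 to 5.38 on IgG arrays and 1.32 to 1.53 on eIF4E arrays, and that of GAPDH 2.03 to 2.78 and 1.13 to 1.31. On IgG arrays the Alu signal lay between 36880 and 53250, against 13480 and 18480 on eIF4E arrays. Poly-A controls, which do not measure RNA of the cells, read 519.5 to 1266 on IgG arrays and 13.8 to 24.1 on the others. Hybridization controls read 2052 to 8728 on IgG arrays and 440 to 1245 on eIF4E arrays. Their part in the wider IgG effects was not tested.

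Among the genes with an unadjusted p under 0.05, the IgG effect was more often the larger one. The IgG effect was the larger of both in size in 168 of these 216 genes (77.8%), against 4501 of all genes (62.7%). In the 89 genes with a difference above 0, the IgG effect was below 0 in 89 and the eIF4E effect above 0 in 84. In the 127 genes below 0, the IgG effect was above 0 in 126 and the eIF4E effect below 0 in 117. Shares and signs of this kind follow in part from choosing genes by the difference. Such a choice favours the effect with the wider spread over genes, here that of IgG. They are given as a description only.

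**Figure D2:**
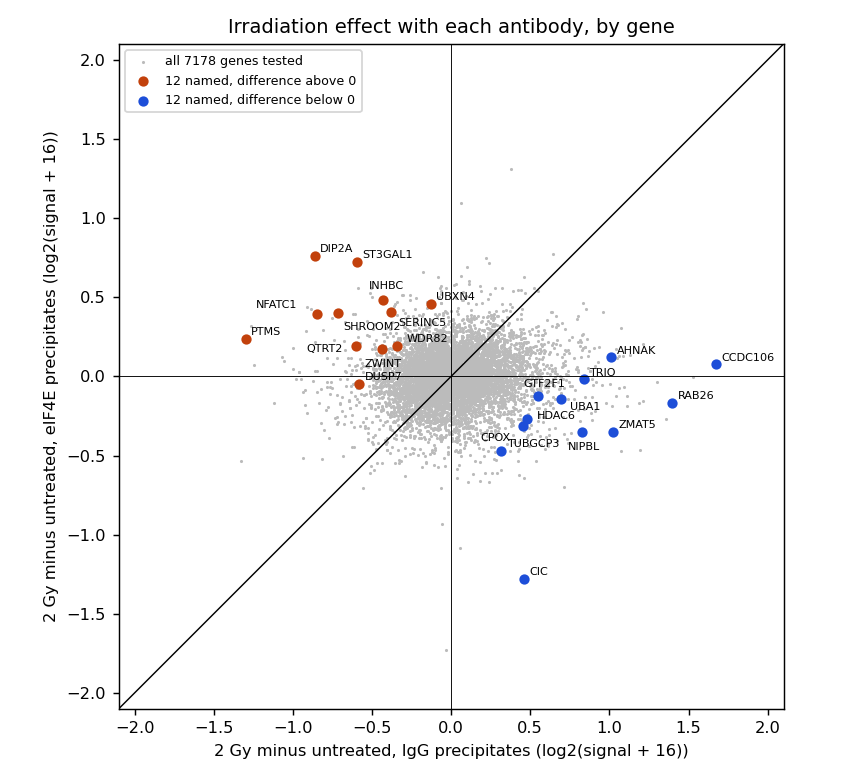
Each point is 1 of 7178 genes, with the irradiation effect on IgG precipitates (horizontal, log2) and on eIF4E precipitates (vertical, log2), and the diagonal marks equal effects. The 12 named genes above the diagonal (orange) and the 12 below it (blue) lie mostly far to the left or right of 0, and CIC is the named gene with the lowest eIF4E effect (-1.28).

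Since no gene passed, the genes shown in full are those with the smallest p in each direction whose difference kept its sign in all 81 choices of 1 array per group. That sign was kept in 109 genes (1.52%), 56 above 0 (0.78%) and 53 below (0.738%), and 77 of them also had an unadjusted p under 0.05. The 12 genes named in each direction were not past the adjusted threshold, and choosing them by p and sign means that their size is no independent evidence. Their unadjusted limma p lay between 0.000548 and 0.0151 above 0 and between 0.000719 and 0.00678 below 0. On IgG arrays, untreated and irradiated cells did not overlap in 22 of the 24, against 8.68% of all genes. On eIF4E arrays they did not overlap in 8 of the 24, against 9.4% of all genes, a share that the choice of genes raises too.

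Among the 12 genes above 0, DIP2A, of the disco-interacting protein 2 family, had the smallest p. Its signals were 295, 277 and 251 with IgG in untreated cells and 118, 146 and 171 with IgG after irradiation, and 65.5, 65.4 and 29.2 with eIF4E in untreated cells and 78.7, 88.5 and 131 after irradiation. The irradiated arrays were thus all below the untreated ones with IgG and all above them with eIF4E. The difference was 1.62 ± 0.38 (SE, 3 arrays per group, 95% interval 0.82 to 2.42), from an eIF4E effect of 0.76 and an IgG effect of -0.86. DIP2A was read by a probe set of the _x_at kind, whose probes can also match other transcripts, and so was PTMS.

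SHROOM2, an actin-binding protein, gave IgG signals of 292, 158 and 261 in untreated and 142, 111 and 152 in irradiated cells, and eIF4E signals of 82.9, 89.1 and 79.9 in untreated and 113, 112 and 122 in irradiated cells. It too had separate arrays under both antibodies, in opposite order. Its difference was 1.11 ± 0.33 (SE, 95% interval 0.41 to 1.81). SERINC5, a membrane protein known to restrict HIV, showed the same order, with IgG signals of 630, 651 and 640 before and 387, 575 and 524 after irradiation, and eIF4E signals of 140, 172 and 156 before and 183, 221 and 236 after. Its difference was 0.79 ± 0.25 (SE). INHBC, the inhibin beta C chain, had IgG signals of 459, 328 and 309 in untreated and 291, 235 and 266 in irradiated cells, and eIF4E signals of 40.7, 71.5 and 68.1 in untreated and 72.4, 83.1 and 114 in irradiated cells. These 4 genes, DIP2A, SHROOM2, SERINC5 and INHBC, were the named genes above 0 in which both antibodies separated the treatments.

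UBXN4, an adaptor of the VCP segregase in the endoplasmic reticulum membrane, differed mainly on the eIF4E side. Its eIF4E signals were 929, 875 and 1058 in untreated and 1242, 1431 and 1273 in irradiated cells, while its IgG signals of 3593, 3181 and 3190 overlapped with 2884, 3488 and 2767. The eIF4E effect was 0.46 and the IgG effect -0.13, which gave a difference of 0.59 ± 0.19 (SE). Both other UBXN4 probe sets above the filter gave values above 0 (0.38 ± 0.26 and 0.32 ± 0.28).

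In ZWINT, a kinetochore protein, the order was clear on the IgG side only. Its IgG signals were 8714, 9458 and 9638 in untreated and 5885, 7100 and 7672 in irradiated cells, and its eIF4E signals were 7355, 6560 and 6992 in untreated and 6952, 8127 and 8609 in irradiated cells. The difference was 0.611 ± 0.185 (SE, 95% interval 0.22 to 1.00). DUSP7, a phosphatase that acts on ERK, was of the same kind, with IgG signals of 1657, 1500 and 1637 against 905, 1094 and 1215 and nearly level eIF4E signals of 727, 685 and 718 against 680, 706 and 674. Its eIF4E effect of -0.05 had the sign of its IgG effect (-0.58), unlike the other 11 genes above 0. WDR82, a subunit of SET1 histone methyltransferase complexes, had IgG signals of 4894, 5316 and 5387 against 3770, 4249 and 4314 and overlapping eIF4E signals of 1806, 1817 and 1965 against 2550, 1772 and 2146.

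ST3GAL1, a sialyltransferase, had a difference of 1.32 ± 0.41 (SE), with an eIF4E effect of 0.72 and an IgG effect of -0.59. Its IgG signals were 249, 205 and 307 in untreated and 154, 156 and 172 in irradiated cells, and its eIF4E signals were 24.1, 74.1 and 38.8 in untreated and 109, 67.6 and 69.4 in irradiated cells. The eIF4E arrays overlapped, and the value ranged from 0.25 to 2.28 over the arrays of equal replicate number. QTRT2, a subunit of the enzyme that puts queuine into transfer RNA, had a difference of 0.79 ± 0.29 (SE), of which -0.60 was the IgG effect and 0.19 the eIF4E effect.

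PTMS, which codes for the small acidic nuclear protein parathymosin, and NFATC1, a transcription factor that calcineurin switches on, were dim on irradiated IgG arrays. PTMS signals there were 10.8, 49.1 and 35.9, against 89.3, 98.2 and 96.4 with IgG in untreated cells, 72.5, 94.4 and 56.4 with eIF4E in untreated cells and 63.9, 85.0 and 128 with eIF4E after irradiation. NFATC1 signals were 132, 73.0 and 56.2 in untreated and 46.3, 39.2 and 31.5 in irradiated IgG precipitates, and 104, 51.5 and 71.7 in untreated and 100.3, 106 and 98.0 in irradiated eIF4E precipitates. Markers of cell types that the line should not hold gave median signals of 10.1 to 26.4 on these arrays (37 such genes under the filter), so the lowest PTMS value lay at that level. The PTMS difference was 1.54 ± 0.485 (SE) and moved to 2.05 with a pseudocount of 1 and to 0.91 with 64. For NFATC1 it was 1.24 ± 0.44, and 1.54 and 0.78 with the same pseudocounts.

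Among the 12 genes below 0, CCDC106, a coiled-coil protein, had the smallest p, and its value rested on IgG arrays at background. Its IgG signals were 2.67, 8.92 and 6.95 in untreated and 56.6, 51.9 and 54.1 in irradiated cells, and its eIF4E signals of 137, 123 and 111 overlapped with 156, 109.7 and 130.5. The difference was -1.60 ± 0.38 (SE, 95% interval -2.41 to -0.78), and -0.695 with a pseudocount of 64. RAB26, a GTPase of secretory vesicles, had the same pattern. Its IgG signals were 8.04, 36.2 and 25.1 in untreated and 77.0, 80.3 and 89.4 in irradiated cells, and its eIF4E signals were 116, 80.2 and 88.3 against 99.0, 55.8 and 96.9. Its difference of -1.57 ± 0.46 (SE) was -2.21 with a pseudocount of 1 and -0.87 with 64.

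NIPBL, which loads cohesin onto DNA, had arrays apart under both antibodies. IgG signals were 383, 398 and 451 in untreated and 1112, 523 and 696 in irradiated cells, and eIF4E signals were 220.3, 285 and 213 in untreated and 160.1, 208 and 182 in irradiated cells. The difference was -1.18 ± 0.32 (SE, 95% interval -1.855 to -0.51). The other 3 NIPBL probe sets above the filter gave -0.58 ± 0.46, -0.38 ± 0.33 and -0.13 ± 0.32, of the same sign and smaller. CPOX, an enzyme of heme synthesis, was also separate under both antibodies, with IgG signals of 2981, 3209 and 3509 against 3686, 6029 and 3913 and eIF4E signals of 2815, 2941 and 3015 against 2352, 2336 and 2346.

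CIC, a transcriptional repressor, had the largest eIF4E effect in size among the 24 named genes. Its eIF4E signals were 127, 142 and 144 in untreated cells and 71.9, 35.2 and 40.3 after irradiation, with no overlap. Its IgG signals of 148, 41.1 and 145 in untreated and 194, 118 and 124 in irradiated cells overlapped. The difference was -1.74 ± 0.51 (SE, 95% interval -2.82 to -0.66), of which -1.28 was the eIF4E effect and 0.46 the IgG effect.

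**Figure D3:**
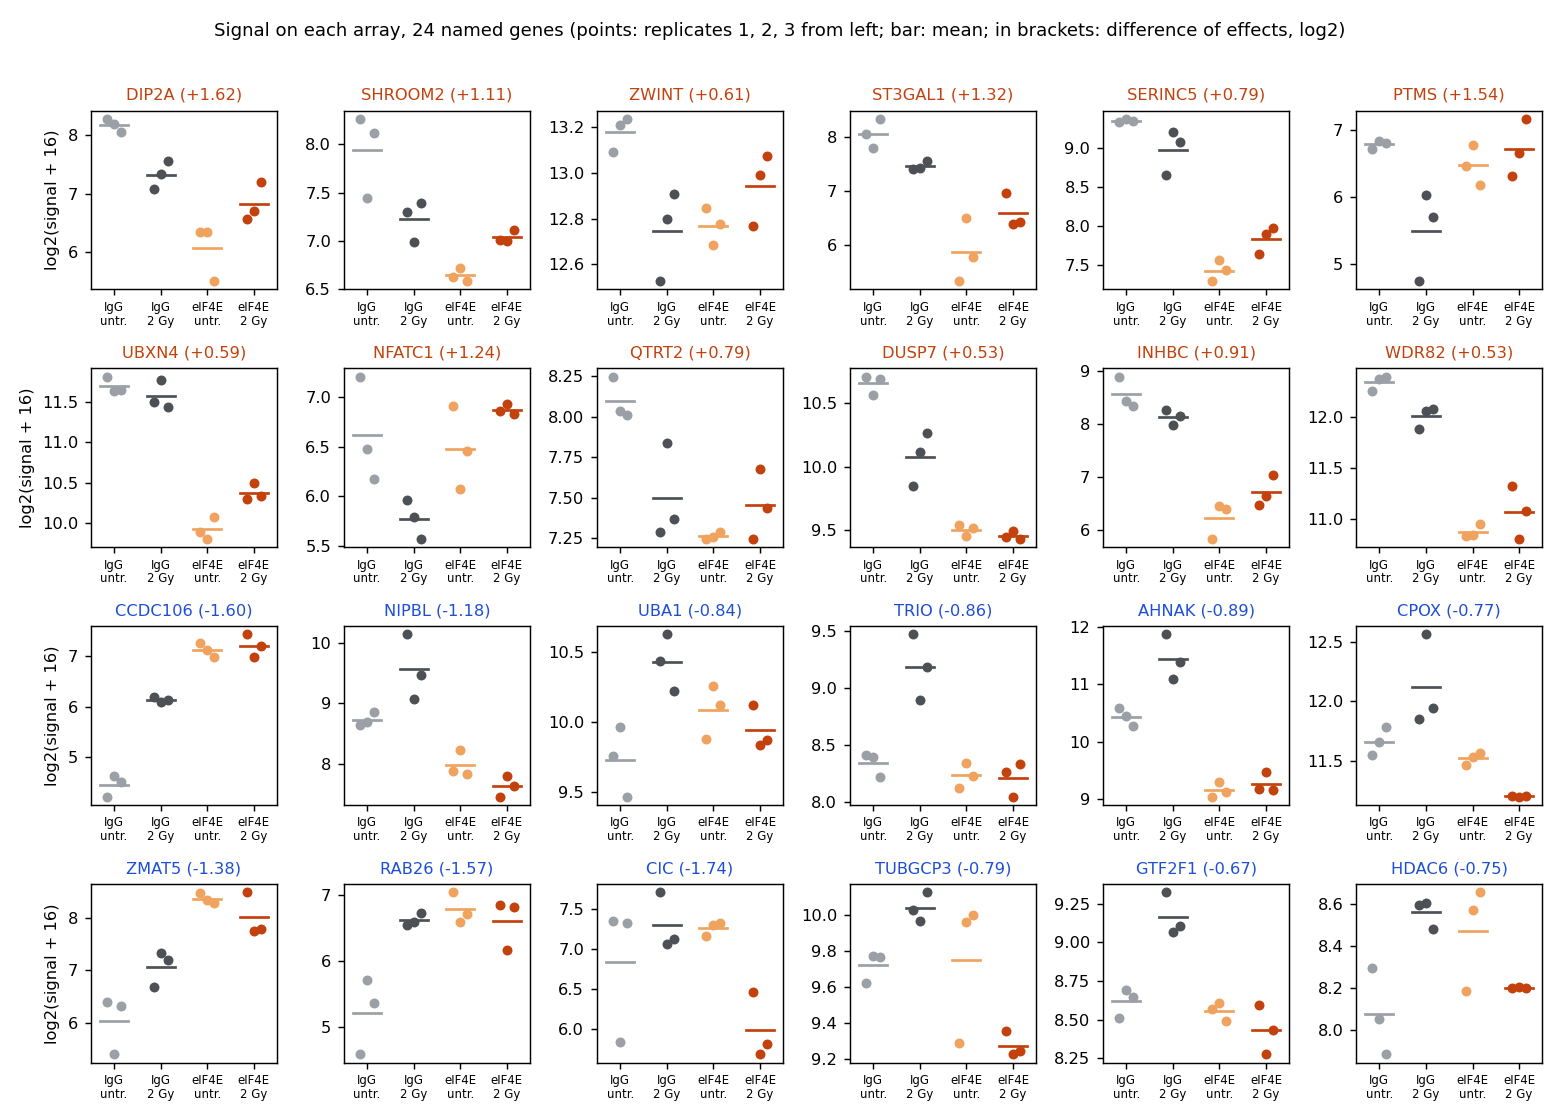
Signals of the 24 named genes on each array (points, replicates 1 to 3 from left to right) with the mean of each group (bar), as log2(signal + 16) on a vertical axis of its own for each gene. Untreated and irradiated IgG points (light and dark grey) are apart in 22 panels, and eIF4E points (light and dark orange) in 8.

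UBA1, the main ubiquitin-activating enzyme, AHNAK, a very large scaffold protein, and GTF2F1, the large subunit of the transcription factor TFIIF, had IgG arrays apart and eIF4E arrays that overlapped. UBA1 signals with IgG were 849.5, 983 and 690.1 against 1367, 1561 and 1173, and its difference was -0.84 ± 0.235 (SE). AHNAK signals with IgG were 1523, 1375 and 1222 against 3728, 2157 and 2653, and its difference was -0.89 ± 0.26 (SE). The one other AHNAK probe set above the filter gave 0.54 ± 0.60, of the other sign. GTF2F1 signals with IgG were 349, 398 and 385 against 625, 521 and 534, and its difference was -0.67 ± 0.21 (SE). Both other GTF2F1 probe sets gave like values (-0.64 ± 0.41 and -0.57 ± 0.29).

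For TRIO, a guanine nucleotide exchange factor, and HDAC6, a deacetylase of tubulin, the sign depended on how probe sets were combined. The TRIO difference was -0.86 ± 0.245 (SE) by its brightest probe set and 0.18 as the mean of all its probe sets, dim ones included, although the other 3 above the filter gave -0.325, -0.33 and -0.18. The HDAC6 difference was -0.75 ± 0.24 (SE) and 0.02 as that mean. ZMAT5, a component of minor spliceosome particles, had a difference of -1.38 ± 0.40 (SE) with IgG signals of 68.4, 26.3 and 64.3 against 86.9, 144 and 131. Its eIF4E signals of 338, 308 and 293 overlapped with 342, 200 and 204.5. TUBGCP3, of the gamma-tubulin complex that starts microtubules, had a difference of -0.79 ± 0.24 (SE), with eIF4E signals of 610, 980 and 1005 in untreated and 640, 583 and 590 in irradiated cells.

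Across the 24 named genes, the IgG effect was the larger in size in 18, against 62.7% of all genes, a share that the choice of genes raises too. Over both treatments together, 9 of the 12 genes above 0 were lower with eIF4E than with IgG (adjusted limma p under 0.05) and 0 were higher. Of the 12 genes below 0, 6 were lower and 3 higher with eIF4E. The 3 were CCDC106, ZMAT5 and RAB26. The share of all genes lower with eIF4E is not given here, so these counts do not set the named genes apart. With replicates 2 and 3 only, an unadjusted limma p under 0.05 was found for 21 of the 24 (430 of 7178 genes in all). As the mean of all probe sets it was found for 14 of the 21 with a value (251 genes in all). With arrays centred on hybridization controls it was found for 0 of the 24 and for 0 of all genes. Those controls themselves ran from 2052 to 8728 on IgG arrays, both ends in irradiated cells, and from 440 to 1245 on eIF4E arrays. The 24 were chosen by p on these same arrays, so such counts are no independent support.

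**Figure D4:**
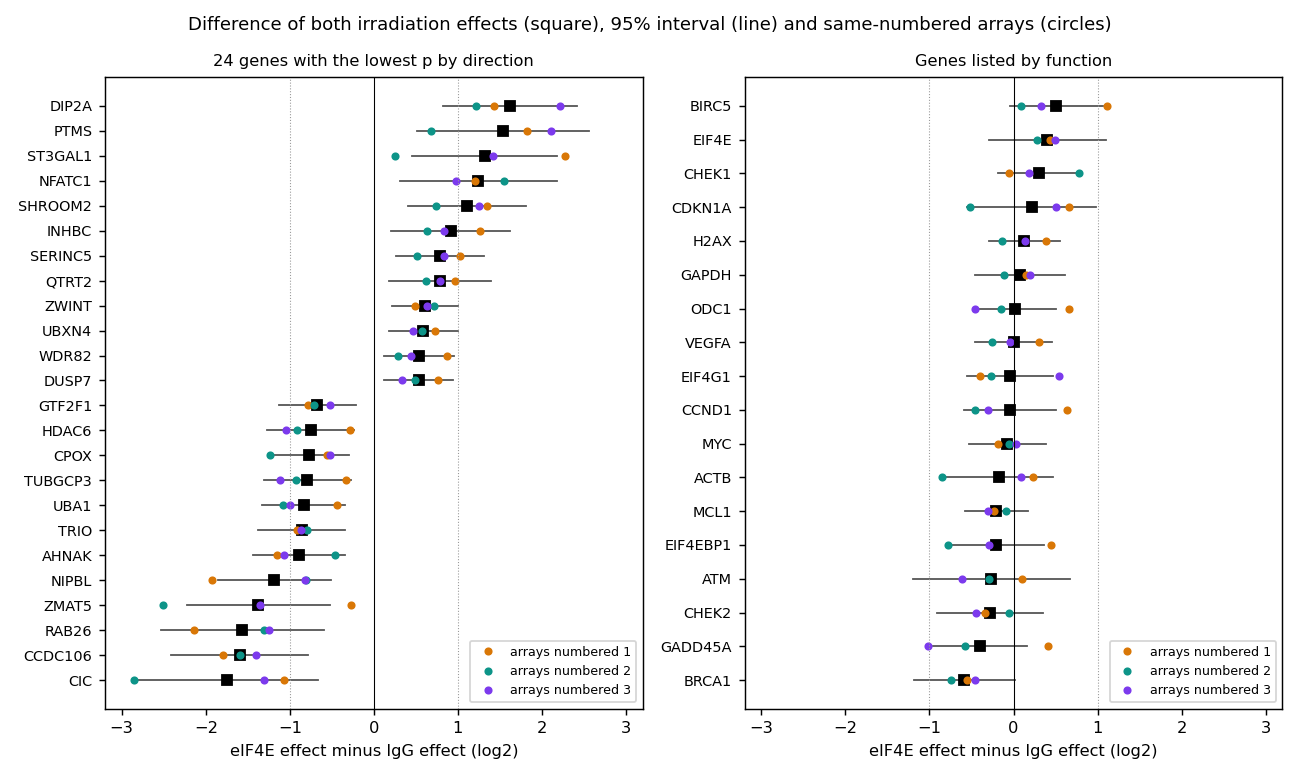
Difference of both irradiation effects (square, log2) with its 95% interval (line) and the values from arrays of equal number (circles), for the 24 named genes on the left and 18 genes chosen for their function on the right. Dotted lines mark 2-fold; all 18 intervals on the right hold 0, and BRCA1 (-0.59) and BIRC5 (0.51) lie farthest out.

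Genes chosen for their part in cap-dependent translation or the response to radiation gave no difference past the test, as did all other genes. An unadjusted limma p under 0.05 was found for 0 of the 18 that could be tested. Of all genes 3.01% had one, so 0 of 18 does not set these genes apart. All 18 intervals held 0, and 14 lay within 2-fold in both directions. EIF4E, the messenger of the precipitated protein itself, had IgG signals of 1800, 3137 and 2578 in untreated and 1235, 2633 and 1676 in irradiated cells. Its eIF4E signals were 1203, 1129 and 1031 in untreated and 1118, 1149 and 949 in irradiated cells. Both pairs overlapped, and the difference was 0.40 ± 0.33 (SE, 95% interval -0.29 to 1.095). EIF4EBP1, the messenger of a 4E-BP, gave -0.21 ± 0.27 (SE) and EIF4G1, of the scaffold, -0.04 ± 0.24 (SE). When 1 array was left out the EIF4EBP1 value ran from -0.47 to 0.004, and EIF4G1 was above 0 with replicates 2 and 3 only (0.13).

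Of the messengers known as eIF4E-sensitive, 4 had estimates within 0.1 of 0. CCND1, which codes for cyclin D1, gave -0.04 ± 0.26 (SE), MYC -0.07 ± 0.22, VEGFA, the vascular growth factor, 0.00 ± 0.215 and ODC1, the first enzyme of polyamine synthesis, 0.02 ± 0.23. Their intervals ran from -0.59 to 0.51 for CCND1, from -0.53 to 0.39 for MYC, from -0.455 to 0.45 for VEGFA and from -0.47 to 0.50 for ODC1, so that a 2-fold difference lay outside all 4. The signs of CCND1, MYC, VEGFA and ODC1 changed when single arrays were left out, ODC1 was at -0.306 with replicates 2 and 3 only, and VEGFA was at 0.328 as the mean of all its probe sets. MCL1, a survival protein of the BCL2 family, gave -0.205 ± 0.18, and 0.259 as the mean of all its probe sets, and BIRC5, survivin, 0.51 ± 0.26 (SE, 95% interval -0.04 to 1.06). The BIRC5 value came from IgG signals of 3186, 2880 and 3494 in untreated and 1751, 3026 and 2693 in irradiated cells, which overlapped, and its other 2 probe sets gave 0.10 and 0.19.

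Of the damage response genes among these 18, BRCA1, a repair protein of homologous recombination, lay farthest from 0, at -0.59 ± 0.28 (SE, 95% interval -1.19 to 0.01). Its IgG signals were 423, 386 and 462 in untreated and 1023, 682 and 601 in irradiated cells, without overlap. Its eIF4E signals of 182, 253 and 246 overlapped with 303, 263 and 229.5, so that the IgG effect was 0.80 and the eIF4E effect 0.215. The other BRCA1 probe set above the filter gave -1.32 ± 0.64 (SE). The checkpoint kinases gave 0.30 ± 0.23 for CHEK1, -0.28 ± 0.30 for CHEK2 and -0.27 ± 0.44 for ATM. CDKN1A, the p21 inhibitor, gave 0.22 ± 0.36, GADD45A, a damage-induced stress protein, -0.40 ± 0.27 and H2AX, the histone marked at breaks, 0.13 ± 0.20. With replicates 2 and 3 only, CDKN1A and H2AX were at -0.006 and -0.004. The reference messengers ACTB and GAPDH gave -0.18 ± 0.305 and 0.08 ± 0.25. MDM2 was under the filter, with signals of 4.04 to 144, and EIF4A1 had no probe set of its own.

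Gene groups were described by the median of their tested members, beside a median of -0.007 over all genes, and no member of any of the 33 lists passed the adjusted test. In the 30 lists with at least 5 tested members, medians ran from -0.243 to 0.251. The SE given for a list is that of the same difference taken on the list's median signal on each array. It is not the SE of the median over members, and serves only as a guide to the spread between arrays. This SE exceeded the distance of the list's median from 0 in all but 2 lists, chromatin regulators and mitosis. No median lay farther than 2 such SE from 0. Under another scaling of the arrays 9 list medians changed sign, the largest of them 0.068 in size.

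Chromatin regulators had the lowest median, -0.243 (SE 0.19), with 43 of 51 tested members below 0, against 50.9% of all genes below 0. At an unadjusted p under 0.05 there were 0 members above and 2 below 0, where 1.24% and 1.77% of all genes lay. The list's median was 0.149 for the IgG effect and -0.048 for the eIF4E effect. Its lowest member was EP300, a histone acetyltransferase, at -1.09 ± 0.44 (SE), with IgG signals of 206, 207 and 123 against 399, 272 and 297 and eIF4E signals of 188, 128 and 117 against 184, 60.9 and 126. Only its IgG arrays were apart. CHD9, a chromatin remodeller, lay at -0.77, and its other probe set above the filter gave -1.39 ± 0.34 (SE). The highest member, the deacetylase HDAC5, lay at 1.005 ± 0.88, from signals that reached down to 4.67 on 1 irradiated IgG array. The median shrank to -0.135 with replicates 2 and 3 only, to -0.129 with array weights and to -0.133 with the mean of all probe sets, and ran from -0.315 to -0.101 when 1 array was left out.

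Cytosolic ribosomal proteins, whose messengers carry a terminal oligopyrimidine tract and answer to mTOR, had a median of 0.151 (SE 0.199). Of 52 members 44 lay above 0, against 48.9% of all genes, and 0 had an unadjusted p under 0.05, against 3.01% of all genes. The highest was RPL27A at 0.72 ± 0.355 (SE), with eIF4E signals of 236, 235 and 259 in untreated and 328, 296 and 368 in irradiated cells that did not overlap, and overlapping IgG signals of 1342, 955 and 758 against 1247, 528 and 772. RPL37A lay at 0.46 and, at the low end, RPL24 at -0.19 and RPL31 at -0.18. With quantile normalization the median was 0.033. Other translation factors had a median of -0.005 (16 of 33 above 0), with EIF3A at -0.70, EIF5B at -0.36, EIF5 at 0.37 and EIF5A at 0.38. Their other probe sets above the filter lay at -0.244 and -0.056 for EIF3A and from -0.556 to -0.004 for EIF5B. For EIF5 they lay from -0.025 to 0.242, and for EIF5A at 0.034 and 0.078. The cap-binding complex and its regulators had a median of 0.068 (10 of 16 above 0), with the cap-binding protein NCBP1 at -0.32 and EIF4EBP2 at 0.45 at the ends, and -0.001 after median centring. EIF4EBP2 was below 0 with replicates 2 and 3 only (-0.30).

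Replication-dependent histones had the highest median, 0.251 (SE 0.36), from only 13 tested of 36 on the array, with 7 above and 6 below 0. Their members were spread from H2AC17 at -1.30 and H2AC14 at -0.64 to H1-4 at 0.68 and H2AC4 at 0.84, and the median was -0.038 over genes higher with eIF4E than with IgG. Histone messengers of this kind end in a stem-loop and not in a poly(A) tail.

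**Figure D5:**
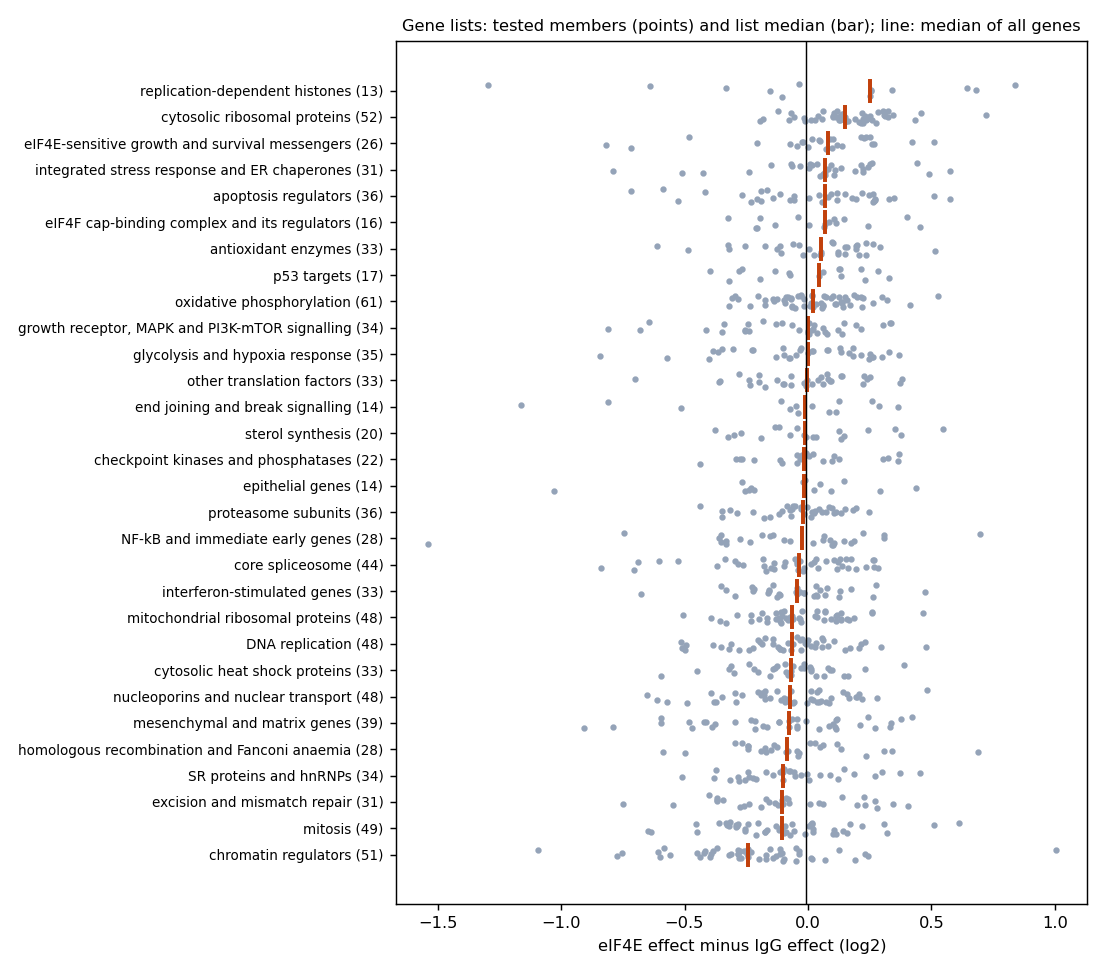
Difference of both irradiation effects (horizontal, log2) for the tested members (points) of 30 gene lists, with the number of members in brackets, each list's median (orange bar) and the median of all genes (line, -0.007). List medians run from -0.243 for chromatin regulators to 0.251 for replication-dependent histones, inside the spread of the members.

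DNA repair and cell cycle lists lay at or slightly below 0. Homologous recombination and Fanconi anaemia genes had a median of -0.085 with 18 of 28 below 0, between BRCA1 at -0.59 and FANCC, of the Fanconi core complex, at 0.69. End joining and break signalling had a median of -0.012 with 7 of 14 on each side of 0. Its lowest member was PRKDC, the catalytic subunit of the DNA-dependent kinase, at -1.16 ± 0.37 (SE, 95% interval -1.95 to -0.37). PRKDC signals with IgG were 667, 350.3 and 446 in untreated and 1465, 838 and 781 in irradiated cells, without overlap, and its eIF4E signals of 334, 451 and 317 overlapped with 294, 448 and 279. Its other probe set above the filter gave -1.09 ± 0.41. TP53BP1, which binds marked breaks, lay at -0.81 and UIMC1 at 0.36 at the high end.

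Excision and mismatch repair had a median of -0.105 (20 of 31 below 0), from the nuclease ERCC5 at -0.75 to ERCC8 at 0.40. Checkpoint kinases and phosphatases had a median of -0.016 (12 of 22 below 0), with ATR at -0.44 (-0.78 by its other probe set above the filter) and RAD9A at 0.37. DNA replication had a median of -0.064 (33 of 48 below 0), with TOP2B at -0.52 and GINS1 at 0.48. Mitosis genes had a median of -0.106 (SE 0.091), with 32 of 49 below 0, from MKI67, the proliferation antigen, at -0.65 and the condensin subunit NCAPD2 at -0.63 to BIRC5 and ZWINT. At an unadjusted p under 0.05 there were 1 member above and 2 below 0, against 1.24% and 1.77% of all genes. The p53 targets, in a line without normal p53, had a median of 0.045 (9 of 17 above 0), with GADD45A at -0.40 and PMAIP1 at 0.33.

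Signalling and stress lists gave medians between -0.067 and 0.083. Messengers known as sensitive to eIF4E had a median of 0.083 with 17 of 26 above 0, against 48.9% of all genes, and a median of -0.061 with replicates 2 and 3 only. At an unadjusted p under 0.05 there were 0 members above and 2 below 0, against 1.24% and 1.77% of all genes. Their ends were CLOCK, the circadian transcription factor, at -0.82 and BCL2L1, a survival protein, at -0.72 (-0.59 and 0.13 by its other probe sets), and MMP9 at 0.42 and BIRC5 at 0.51. Immediate early and NF-kB genes had a median of -0.025 (14 of 28 on each side), with JUNB, an AP-1 subunit, at -1.54 ± 0.53 (SE). JUNB signals with IgG were 17.4, 19.5 and 73.9 in untreated and 126, 99.6 and 44.3 in irradiated cells, which overlapped. With eIF4E they were 171, 215 and 206 in untreated and 161, 106 and 152 in irradiated cells, which did not. The JUNB value from the arrays numbered 3 was 0.17, against -2.17 and -2.63 from the others.

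Integrated stress response and chaperone genes of the endoplasmic reticulum had a median of 0.071 (23 of 31 above 0), with the sensor ATF6 at -0.79 (0.215 by its other probe set above the filter) and CHAC1 at 0.57. Cytosolic heat shock proteins had -0.067 (21 of 33 below 0), with HSF1, their transcription factor, at -0.595. Interferon-stimulated genes had -0.045 (20 of 33 below 0), with OASL at -0.675. Apoptosis regulators had 0.07 (21 of 36 above 0), with XIAP at -0.59 and CASP2 at 0.57 (0.295 and -0.172 by its other probe sets). Growth receptor, MAPK and PI3K-mTOR genes had 0.002 (18 of 34 above 0), with RPS6KB1, the S6 kinase, at -0.81 (0.069 by its other probe set above the filter) and MTOR at -0.68. Glycolysis and hypoxia genes had 0.00 (17 of 35 above 0), with PKM, pyruvate kinase, at -0.84 by its brightest probe set and 0.01 as the mean of its probe sets.

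The remaining lists lay close to 0 as well. Oxidative phosphorylation had a median of 0.021 (36 of 61 above 0), with COX7B, a subunit of cytochrome oxidase, at 0.525 ± 0.20 (SE) as its highest member. Mitochondrial ribosomal proteins had -0.063 (29 of 48 below 0) and proteasome subunits -0.022 (20 of 36 below 0). The core spliceosome had -0.035 (25 of 44 below 0), with PRPF8 at -0.84 and the helicase DHX15 at -0.705, and SR proteins and hnRNPs -0.10 (24 of 34 below 0). Nucleoporins and transport factors had -0.074 (28 of 48 below 0), with NUP214 at -0.65. Antioxidant enzymes had 0.053 (21 of 33 above 0), with NQO1, a quinone reductase, at 0.515 ± 0.205 (SE) by its brightest probe set and -0.164 and -0.067 by both others. Sterol synthesis had -0.013 (11 of 20 below 0), with MSMO1 at 0.55. Mesenchymal and matrix genes had -0.077 (25 of 39 below 0), with COL6A3 at -0.91, and epithelial genes -0.018 (8 of 14 below 0), with MUC1 at -1.03.

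The intervals bound a difference only relative to the rest of an array, and for the probe set read for each gene. All arrays were scaled to the same trimmed mean. A change shared by all RNA recovered with eIF4E is therefore removed and was not bounded. The pseudocount shrinks fold changes of dim genes, so the fold limits below hold on that scale and understate what dim genes could have changed. The median SE of a gene's difference was 0.274 (0.189 to 0.501 from the 5th to the 95th percentile), and the median 95% interval reached 0.58 to either side, or 1.5-fold. The interval lay within 2-fold in both directions for 5314 genes (74.0%), within 3-fold for 6824 (95.1%) and within 1.5-fold for 1314 (18.3%). The differences computed from arrays of equal number correlated at 0.012 to 0.051 between the 3 sets, and 1987 genes (27.7%) had 1 sign in all 3.

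The arrays were checked for cell identity and control measures. Of 8 genes known in the line, 7 were above the filter (SPARC was not, at 4.42 to 64.5). Among genes expected to be low or absent in the line, ESR1, PGR, CDH1 and FOXA1 were under the filter, while ERBB2, ERBB3, EPCAM, KRT19 and GATA3 were above. Group means were 2275 to 2885 for KRT19, 583.5 to 1131 for EPCAM and 704 to 1236 for GATA3. They were 253 to 360 for ERBB2 and 42.7 to 93.7 for ERBB3. Of the genes known in the line, EGFR had 291 to 1097 and PLAUR 875 to 1972. Of the leukocyte, liver, and neuron and muscle markers, 1, 1 and 3 were above the filter. The neuron and muscle genes were MBP (0.47), GAD1 (0.59) and NPPA (1.20), with a median of 0.59 and 2 of 3 above 0 at an unadjusted p under 0.05 (1.24% of all genes). Their list's summed signal was 3478 to 4141 and 2422 to 2969 in untreated and irradiated IgG precipitates, and 1599 to 1865 and 1739 to 1903 with eIF4E. The part of these in any result was not tested. The difference of both irradiation effects was 0.224 for the Alu signal (exact two-sided permutation p = 0.33), -0.238 for the actin 3' to 5' ratio (exact p = 0.455) and -0.121 for that of GAPDH (exact p = 0.485). It was 0.092 for the hybridization controls (exact p = 0.935) and -0.018 for their bioB to bioC ratio (exact p = 0.99). The poly-A controls had signals at the level of unexpressed markers on eIF4E arrays, so no difference is given for them. The smallest p these 400 arrangements can give is 0.005, and the values adjusted over 6 measures were 0.728 to 0.99. The bioB to bioC ratio was 0.369 to 0.46 on the arrays numbered 1 and 0.0351 to 0.0899 on the others, in every group. With replicates 2 and 3 only, 0 genes passed in limma (smallest adjusted p 0.403, 430 genes with an unadjusted p under 0.05), and with number 1 against the others as a block 0 passed too (smallest adjusted p 0.943, 347 genes).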

How the data were processed

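The deposited table holds 1 signal for each probe set and array, a linear intensity that the authors made with MAS5 (no version stated), per the submitters' processing notes. With 2% left out at each end, every array averaged 500.2, so values are relative within an array. Signals were used as deposited, as log2(signal + 16), a scale that understates the change of dim genes. Of 22277 probe sets, 19064 had 1 gene symbol in the platform annotation, 1043 several and 2108 none, and 19052 matched a RefSeq gene (GRCh38.p14, used for names and lengths only). Each of 11963 genes was read by its brightest probe set, with _x_at probe sets as a last resort, and 7178 genes at or above the 40th percentile of mean log2 signal (a signal of 57.4) were tested.

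Group means of all 12 arrays entered a linear model of limma 3.58.1 under R 4.3.3 (lmFit, eBayes with a trend), and p was adjusted with Benjamini-Hochberg at a threshold of 0.05. The design text calls the replicates biological; p-values measure only the spread between these samples. The fit was tested on simulated data. Genes were named as the 12 of smallest p in each direction with 1 sign in all 81 choices of 1 array per group (none passed the threshold), the 2 lowest and 2 highest members of every list, and 21 genes chosen by function, of which 1 is not reported here. Members, lists and rules were chosen with earlier results of these data known. Control measures were compared with exact permutation tests, with treatment permuted within each antibody. Alternatives were pseudocounts of 1 and 64, other filters, scalings, variance models, blocks and probe set summaries, and the omission of each array. Same-numbered arrays were checked for pairing by the correlation of their deviations from group means. These correlations ran from -0.019 to 0.374, and those of the arrays numbered 1 from 0.096 to 0.374. Between untreated and irradiated eIF4E arrays they were 0.374, 0.208 and 0.181 for numbers 1, 2 and 3. At least 1 such correlation was under 0.1 in 5 of the 6 pairs of groups, and numbers were not taken as pairs in the main fit. This choice is no test of pairing, and any part shared by same-numbered arrays stays in the spread of the main fit. With replicate number as a block, 304 genes had an unadjusted limma p under 0.05. Figures were drawn with matplotlib 3.10.9.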

Additional observations from a re-analysis of the deposited data

How the results depend on the processing

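Under all 28 alternatives (12 of them the omission of 1 array) 0 genes passed, with smallest adjusted limma p of 0.064 (no variance trend, CCDC106) to 0.9999. Genes with an unadjusted p under 0.05 numbered 0 (centring on hybridization controls) to 465 (no filter), and 129 to 392 without 1 array. The replicate block gave 304 (smallest adjusted p 0.97, 0 calls) and changed no call, and replicates 2 and 3 only gave 430, array weights 462, probe set means 251, and the genes higher with eIF4E than IgG 44 of 2334. The count of 216 moved by over 1.5 times without eIF4E control replicate 2 (129) or 3 (131) and without irradiated IgG replicate 2 (382) or 3 (392). None of 840 list medians moved by more than the spread of 1 set of arrays, though 18 of 30 changed sign somewhere, and 68 of 4096 values of 152 named genes, in 30 genes, were of the other sign. With replicates 2 and 3 only these were EIF4G1 0.134, ODC1 -0.306, CDKN1A -0.006, H2AX -0.004, ATR 0.059, GSTM4 0.179, EIF4EBP2 -0.299, RPL31 0.021, PSMD5 -0.035, STUB1 -0.033 and GLE1 -0.389. With probe set means they were TRIO 0.176, HDAC6 0.02, EIF4G1 0.021, VEGFA 0.328, MCL1 0.259, PKM 0.011, EIF4EBP2 -0.272, RPL31 0.086, PSMD5 -0.073, SYNCRIP -0.081 and GATA3 -0.312. With array weights they were EIF4G1 0.174, ODC1 -0.234, EIF4EBP2 -0.079 and GLE1 -0.091. ODC1 was also at -0.014 (quantile normalization), -0.052 (median centring) and 0.00 (hybridization controls), and VEGFA at 0.002 (pseudocount 64) and 0.03 (quantile normalization). Without 1 array, values spanned 0 for ACTB (-0.449 to 0.157), ATM (-0.548 to 0.136), CCND1 (-0.287 to 0.088), CDKN1A (-0.054 to 0.435), CHAC1 (-0.195 to 1.252), EIF4EBP1 (-0.473 to 0.004), EIF4G1 (-0.219 to 0.157), GAPDH (-0.129 to 0.216), GLE1 (-0.112 to 0.528), GSTM4 (-1.278 to 0.08), LIF (-0.055 to 0.499), MYC (-0.211 to 0.091), ODC1 (-0.135 to 0.127), POLE3 (-0.032 to 0.537), RAD9A (-0.002 to 0.686), RPL31 (-0.442 to 0.094), SNRNP27 (-0.025 to 0.47), STUB1 (-0.031 to 0.458), TM7SF2 (-0.577 to 0.038) and VEGFA (-0.106 to 0.101). The cause was not tested. The number of arrays limits the precision, and dim genes near background depend on the pseudocount.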

Other observations

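Values in this section were looked at after results were known. Of 3306 further probe sets of 2296 genes above the filter, 1962 (59.3%) had a difference of the same sign as the gene's brightest probe set. For the 63 genes with an unadjusted limma p under 0.05 and another probe set, 67 of 96 others had the same sign, and 9 of them also had p under 0.05.

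Probe sets outside the gene tests gave no call either. Of 664 probe sets with no gene symbol, 0 had an adjusted limma p under 0.05 and 35 an unadjusted p under 0.05. Of 579 with several symbols, the counts were 0 and 16. Among the genes tested, 216 of 7178 (3.01%) had an unadjusted p under 0.05.

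By gene length, the median difference was 0.007 in the shortest 20% of the genes and -0.026 in the longest, where 39 genes lay below 0 and 17 above at an unadjusted p under 0.05. In the shortest 20% these counts were 21 and 20. Both groups held 1436 genes, and over all genes tested the shares were 1.77% below and 1.24% above 0. Over 7177 genes the rank correlation of length with the difference was -0.045, with 0.06 for the IgG effect and 0.022 for the eIF4E effect. For the GC content of the first 50 bases it was -0.002 over 6055 genes. Genes are not independent, and no test was made.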
